A study of Caenorhabditis elegans with 2 samples.

Results

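The regions described here are the UNC-39 ChIP-seq peaks that lie near microRNA (miRNA) genes. They were taken from the authors' pooled list of ce11 regions by position only: a region was kept when its summit lay within 1000 bp of a gene that Ensembl's WBcel235 annotation gives the biotype miRNA. The rule found 180 of 30000 regions, and used no signal value. The study precipitated chromatin of Caenorhabditis elegans L2 larvae that carried an eGFP-tagged unc-39 transgene. Both replicates were whole larvae of strain OP186, with the insertion wgIs186 and the unc-119 allele ed3, of mixed sex, and the labels call them biological replicates 1 and 2. There was 1 group, with no untagged or other-stage sample in it, and tissues cannot be told apart in whole larvae. What the transgene's expression was relative to the endogenous gene is not given in the sources used here.

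MicroRNAs are short RNAs that are cut from hairpin transcripts and loaded into an Argonaute protein, where bases 2 to 8 of the mature strand, the seed, pair with messenger RNAs and lower their output. Genes with the same seed form a family, and neighbouring hairpins are often transcribed together. lin-4 and let-7, the founding miRNAs, time the larval stages of C. elegans. UNC-39 is a homeodomain transcription factor of the SIX4/5 class, known in C. elegans for roles in mesoderm and in the migration of the CAN neurons.

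The mature strands of 4 groups are given because the results below return to them: the mir-51 family, which had the highest signal, the pair mir-62 and mir-90, the abundant mir-58 family, and lin-4 with its relative. mir-2 and mir-75, with higher signals than the mir-58 family and lin-4, and mir-71, with a higher one than lin-4, are described without their sequences. Seeds are in capitals, 5′ to 3′ as RNA, read by position from the RefSeq genome and annotation of WBcel235. The mir-51 family shares the seed ACCCGUA, mir-62 and mir-90 share GAUAUGU, and lin-4 and mir-237 share CCCUGAG. mir-80, mir-81 and mir-82 share GAGAUCA, and mir-58a, counted in the same family, has the seed GAGAUCG.
mir-51: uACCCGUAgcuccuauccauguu
mir-52: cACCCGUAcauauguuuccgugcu
mir-53: cACCCGUAcauuuguuuccgugcu
mir-54: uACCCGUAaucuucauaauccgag
mir-55: uACCCGUAuaaguuucugcugag
mir-56: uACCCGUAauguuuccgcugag
mir-62: uGAUAUGUaaucuagcuuacag
mir-90: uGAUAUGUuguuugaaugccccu
mir-58a: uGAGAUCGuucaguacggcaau
mir-80: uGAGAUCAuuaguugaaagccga
mir-81: uGAGAUCAucgugaaagcuagu
mir-82: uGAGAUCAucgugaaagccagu
lin-4: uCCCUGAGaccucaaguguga
mir-237: uCCCUGAGaauucucgaacagcu

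The 200 bases around 4 summits are printed to show the regions upstream of mir-54, mir-52 and mir-90; they are not the 4 highest, since the mir-2 region (58.1) had a higher signal than the proximal mir-52 region (54.9) and the mir-90 region (43.0) and is not printed. They are the plus strand of WBcel235 (ce11) from the RefSeq genome, with the summit at base 101, and capitals mark matches to the short patterns searched, on either strand. The first lies at chrX:13145285-13145484 beside mir-54, the next at chrIV:14033039-14033238 and chrIV:14033806-14034005 beside mir-52, and the last at chrIII:8874327-8874526 beside mir-90.
mir-54 region: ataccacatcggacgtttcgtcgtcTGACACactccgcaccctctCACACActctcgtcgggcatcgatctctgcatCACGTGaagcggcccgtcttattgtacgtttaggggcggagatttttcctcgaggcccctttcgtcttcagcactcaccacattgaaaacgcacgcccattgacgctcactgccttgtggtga
mir-52 distal region: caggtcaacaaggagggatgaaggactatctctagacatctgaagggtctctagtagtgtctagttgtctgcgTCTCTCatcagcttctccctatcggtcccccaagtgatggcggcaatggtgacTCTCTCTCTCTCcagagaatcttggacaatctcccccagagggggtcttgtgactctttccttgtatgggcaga
mir-52 proximal region: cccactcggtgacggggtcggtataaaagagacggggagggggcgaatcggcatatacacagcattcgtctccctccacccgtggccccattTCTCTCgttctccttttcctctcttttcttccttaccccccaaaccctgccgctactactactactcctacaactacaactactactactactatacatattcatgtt
mir-90 region: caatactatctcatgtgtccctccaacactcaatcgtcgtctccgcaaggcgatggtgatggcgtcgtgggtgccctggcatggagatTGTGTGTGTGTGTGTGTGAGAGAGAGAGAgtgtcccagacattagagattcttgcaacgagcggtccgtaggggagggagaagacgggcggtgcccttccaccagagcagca

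In the mir-54 region the capitals are TGACAC at base 26, the repeat CACACA at base 46 and the palindromic E-box CACGTG at base 78. In the distal mir-52 region they are GAGAGA on the minus strand at base 74 and a run of the same repeat from base 127, which also holds GAGAGAGA. In the proximal mir-52 region a single GAGAGA match lay at base 93 on the minus strand. In the mir-90 region a TG repeat, CACACA on the minus strand, began at base 89 and ran into a GAGAGA repeat on the plus strand from base 106, so the capitals mark 1 continuous stretch across the summit.

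The signal of a region is the authors' enrichment value and can be compared only within 1 list; the pooled list, like each replicate's list, holds background regions as well as peaks, per the file listings. Pooled signals ran from 13.0 to 139, replicate 1 listed 30000 regions with signals from 7.86 to 64.9, and replicate 2 listed 24978 with signals from 7.23 to 77.8. Read depth is unknown. A region was said to be in a replicate's list when a summit of that list lay within 100 bp. The replicates' signals were only loosely related over the 5714 pooled regions found in both, with a Spearman rho of 0.186 over regions of shared libraries.

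The 180 regions near miRNA genes included the 8th-ranked region of the whole list but spanned nearly all of its range, from a signal of 90.9 to one of 13.0. Their median signal was 18.8, against 17.0 for all pooled regions, and their median percentile was 64.8, against 50 by construction. Of these 180, 4 (2.22%; 95% exact binomial interval 0.609 to 5.59) were in the authors' thresholded list of reproducible peaks, against 0.467% of all pooled regions. The top decile, the 3000 regions of highest signal with at least 24.9, held 30 of them (16.7%, 11.5 to 22.9), against 10.0% by definition. The intervals cover counting error over regions only, and the regions are not independent: 16 neighbouring pairs were closer than the region width of 364 bp. The top-decile share differed between the replicates' own lists. It was 33 of 163 regions near miRNA genes in replicate 1 (20.2%) and 18 of 161 in replicate 2 (11.2%); the value in replicate 2 was close to the background of 10.0%.

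**Figure D1:**
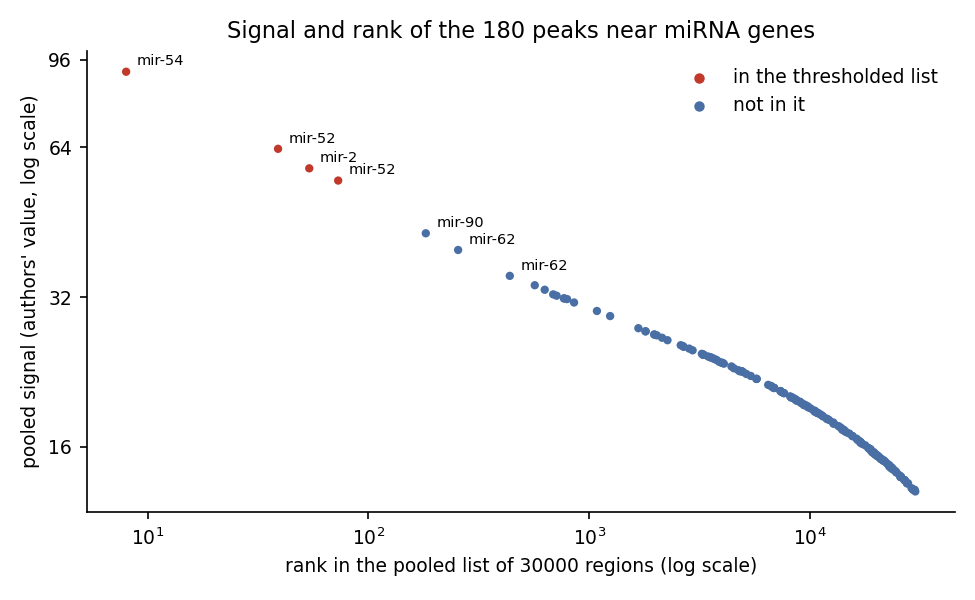
Pooled signal (log scale) against rank in the pooled list (log scale) for the 180 regions near miRNA genes, with the 7 highest named after their nearest miRNA gene. The 4 red points are in the thresholded list, at ranks 8, 39, 54 and 73, and the blue points run from 43.0 to 13.0.

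The strongest signals lay at 2 loci of the mir-51 family, miRNAs that act redundantly in C. elegans embryos, where loss of the whole family detaches the pharynx. The region upstream of mir-54 had a pooled signal of 90.9 (rank 8), and signals of 35.5 (rank 17) in replicate 1 and 54.3 (rank 7) in replicate 2. It spans chrX:13145203-13145566, and its summit is 291 bp upstream of the mir-54 hairpin, inside an intron of the protein-coding gene F09A5.3, which runs on the other strand. mir-55 and mir-56 follow mir-54 within the same intron, with 5′ ends 461 and 598 bp from that summit, so all 3 share the region, as does mir-55b, annotated on the opposite strand. Both replicates thus ranked it among their highest regions.

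mir-52, which stands alone on chromosome IV outside protein-coding genes, had a pair of thresholded regions. The distal one (chrIV:14032957-14033320, 869 bp upstream) had a pooled signal of 63.6 (rank 39), with 34.9 (rank 18) in replicate 1 and 37.7 (rank 40) in replicate 2. The proximal one (chrIV:14033724-14034087, 102 bp upstream) had 54.9 (rank 73), with 35.5 (rank 16) in replicate 1 and 19.8 (rank 452) in replicate 2. In replicate 1 the 2 regions were nearly level, whereas in replicate 2 the distal one was the higher. The nearest protein-coding 5′ end, that of Y37A1B.7, was 10641 and 9874 bp away from these summits.

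The other members of the family had lower signals. A region whose summit fell inside the mir-56 hairpin (chrX:13144596-13144959) had 33.8 (rank 567), with 16.9 (rank 1832) in replicate 1 and 15.5 (rank 1633) in replicate 2, and was in the top decile of both. A region 665 bp downstream of mir-56 had 15.6 (rank 19155) and was in neither replicate's list. The mir-51 region, 103 bp upstream of its hairpin, had 20.1 (rank 8203), with 12.9 (rank 7039) in replicate 1 and 8.4 (rank 17639) in replicate 2. mir-53, on the same strand as mir-51, had no pooled summit in reach; the nearest was the mir-51 region, 1476 bp downstream of the 5′ end of mir-53. In the replicates' own lists mir-53 had signals of 8.62 (rank 24798) in replicate 1 and 8.31 (rank 18135) in replicate 2. The family's 6 genes therefore ranged from rank 8 to no pooled region, although all carry the same seed.

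**Figure D2:**
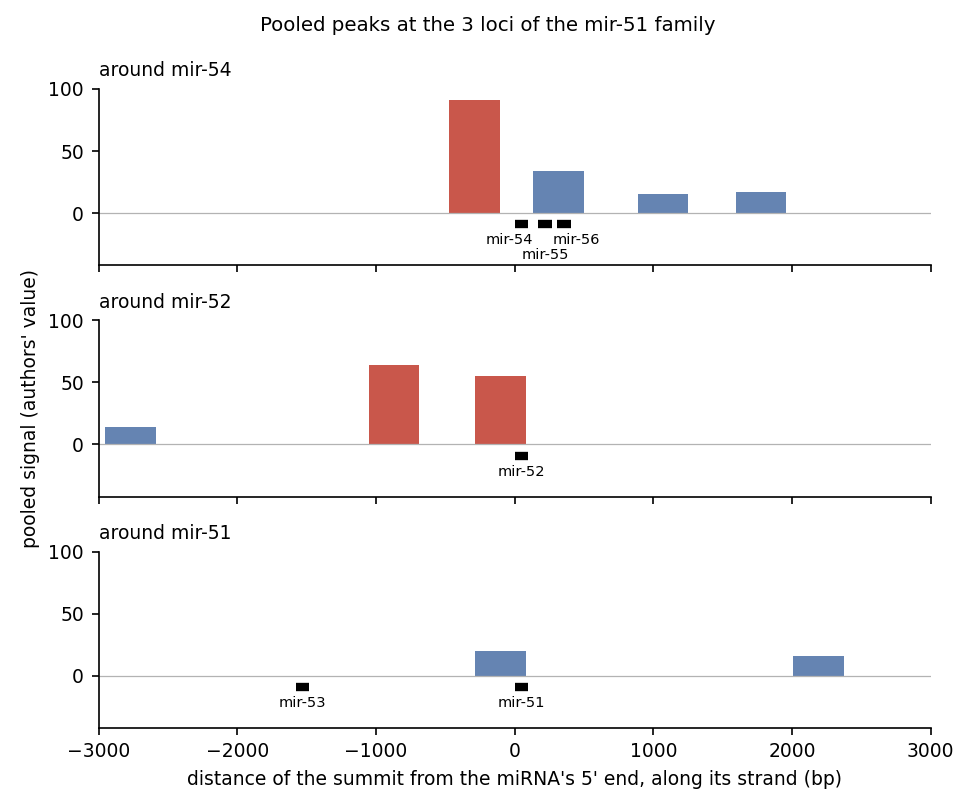
Pooled regions at the 3 loci of the mir-51 family, with the authors' signal on the vertical axis and the distance of the summit from the 5′ end of mir-54, mir-52 or mir-51 on the horizontal axis in bp along its strand; bars are 364 bp wide, black marks are the hairpins, and red bars are in the thresholded list. The red bars, 90.9 at mir-54 and 63.6 and 54.9 at mir-52, stand upstream of the hairpins, and the mir-51 bar reaches 20.1.

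The remaining thresholded region lay 417 bp upstream of mir-2, within an intron of ppfr-1 on the strand of that gene (chrI:9373100-9373463). It had 58.1 (rank 54) in the pooled list, 28.0 (rank 65) in replicate 1 and 30.8 (rank 94) in replicate 2. A second region 635 bp upstream of mir-2 overlapped it, with 15.9 (rank 18398), and was in neither replicate's list. mir-71, a miRNA with a known role in lifespan, sits in the same gene, and the region 250 bp upstream of it had 27.3 (rank 1803), with 20.2 (rank 584) in replicate 1 and no match in replicate 2. A further region 632 bp downstream of mir-71 had 18.1 (rank 12197). Of the miRNAs that share the mir-2 seed, mir-250 was also in reach of regions, those of the mir-250 and mir-61 cluster.

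Next in signal came mir-90 and mir-62, which with mir-50 make up the family of seed GAUAUGU. The mir-90 region printed above (chrIII:8874245-8874608), 343 bp upstream and in an intron of K01F9.2, had 43.0 (rank 182) in the pooled list and 29.1 (rank 112) in replicate 2, with no summit within 100 bp in replicate 1. A region 813 bp downstream of the mir-90 5′ end had 31.7 (rank 794), with 18.8 (rank 949) in replicate 1 and 11.6 (rank 6001) in replicate 2. The highest mir-90 regions in the replicates' own lists, each in the top decile, were thus different ones.

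mir-62 lies within the gene ugt-50 and is known as a mirtron, a miRNA cut out by splicing. Its region 817 bp upstream (chrX:12691609-12691972) had 39.8 (rank 255), with 10.3 (rank 15131) in replicate 1 and 30.2 (rank 99) in replicate 2. That summit was in a coding exon, 164 bp from the 5′ end of ugt-50, nearer to it than to the miRNA. The region downstream of the hairpin (chrX:12692662-12693025) had 35.3 (rank 437), with 26.2 (rank 93) in replicate 1 and no match in replicate 2. A further mir-62 region, which overlaps the one downstream of the hairpin, had 24.2 (rank 3537). It was in the top decile of replicate 2's list and had no match in replicate 1. The highest mir-62 regions in the replicates' own lists were thus different ones. Each replicate nevertheless had a top-decile summit in 1 of the overlapping regions downstream of the hairpin. mir-50 had 15.9 (rank 18371).

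The other regions among the 20 highest had pooled signals from 33.1 to 27.3. mir-2214 had 33.1 (rank 629), mir-75 had 32.4 (rank 687), and mir-87 had 32.2 (rank 712). mir-1830 and mir-8209 both had 31.8, mir-1824 had 31.2, mir-8197 had 30.0, and mir-354 had 29.3. For each of these 8 a summit was found in both replicates' lists, with ranks from 202 to 7588 in replicate 1 and from 2703 to 14704 in replicate 2, well below those of the mir-54 and mir-52 regions. The mir-75 summit lay 200 bp upstream of its hairpin, outside protein-coding genes, while those near mir-1824 and mir-354 lay 86 and 172 bp from the 5′ ends of the coding genes Y87G2A.18 and ekl-4. A mir-243 region, 261 bp upstream, had 27.3 (rank 1797).

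The mir-58 family, among the most abundant miRNAs of the worm, had a region at each of the 4 genes listed for it here, mir-58a, mir-80, mir-81 and mir-82, and 7 in all. Of mir-58b and mir-58c, which carry the GAGAUCA seed and were not in that list, mir-58c had a region in reach and mir-58b had none. The highest lay 310 bp upstream of mir-58a in an intron of Y67D8A.2, with 27.7 (rank 1670) in the pooled list, 24.0 (rank 213) in replicate 2 and no match in replicate 1. The GC content of that region was 60.2%, the highest of the 180. Other mir-58a regions had 22.7 (rank 4803) and 16.3 (rank 17034). mir-80 had regions of 26.8 (rank 2025) 91 bp upstream and 14.5 (rank 23360) 655 bp upstream, both found in replicate 2 and not in replicate 1. mir-81 had 17.3 (rank 14108) and mir-82 had 15.6 (rank 19112), again matched only in replicate 2.

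The lin-4 and let-7 families, known for miRNAs that time larval cell fates, had moderate signals or none. The lin-4 region, 552 bp upstream in an intron of F59G1.4, had 26.9 (rank 1971), with 20.7 (rank 491) in replicate 1 and no match in replicate 2; lin-4 is the repressor of lin-14 and lin-28. Its relative mir-237 had 17.1 (rank 14616), with 11.9 (rank 9548) in replicate 1. Of 7 genes in the let-7 family, 3 had a region. mir-795 and mir-794 shared a region of 26.2 (rank 2262), mir-84 had 22.6 (rank 4983) only 22 bp upstream of its hairpin, and mir-794 had a further region of 19.1 (rank 10061). let-7 itself, mir-48, mir-241 and mir-793 had no pooled summit in reach. In its own list replicate 1 had a region near let-7 with a signal of 11.4 (rank 11052), while replicate 2 had none. lsy-6, which sets left-right asymmetry of the ASE taste neurons, had no pooled region, and signals of 9.41 (rank 19791) in replicate 1 and 7.52 (rank 22988) in replicate 2.

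In the mir-35 family, essential in embryos, 7 of 8 genes had a region in reach, but they share 2 regions because 7 hairpins sit side by side in an intron of Y62F5A.9. The summit inside mir-35 had 24.6 (rank 3237), with 9.79 (rank 18005) in replicate 1 and 14.2 (rank 2521) in replicate 2. The one 180 bp downstream of mir-41 had 13.5 (rank 27784). mir-42, in a separate cluster with mir-43 and mir-44, had no pooled summit in reach. mir-1, the muscle miRNA, had 21.0 (rank 6858) inside its hairpin, with a match in replicate 2 (14.1, rank 2573) and none in replicate 1, and mir-124, a miRNA of sensory neurons, had 23.2 (rank 4407) and 15.3 (rank 20380). mir-34 had none.

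**Figure D3:**
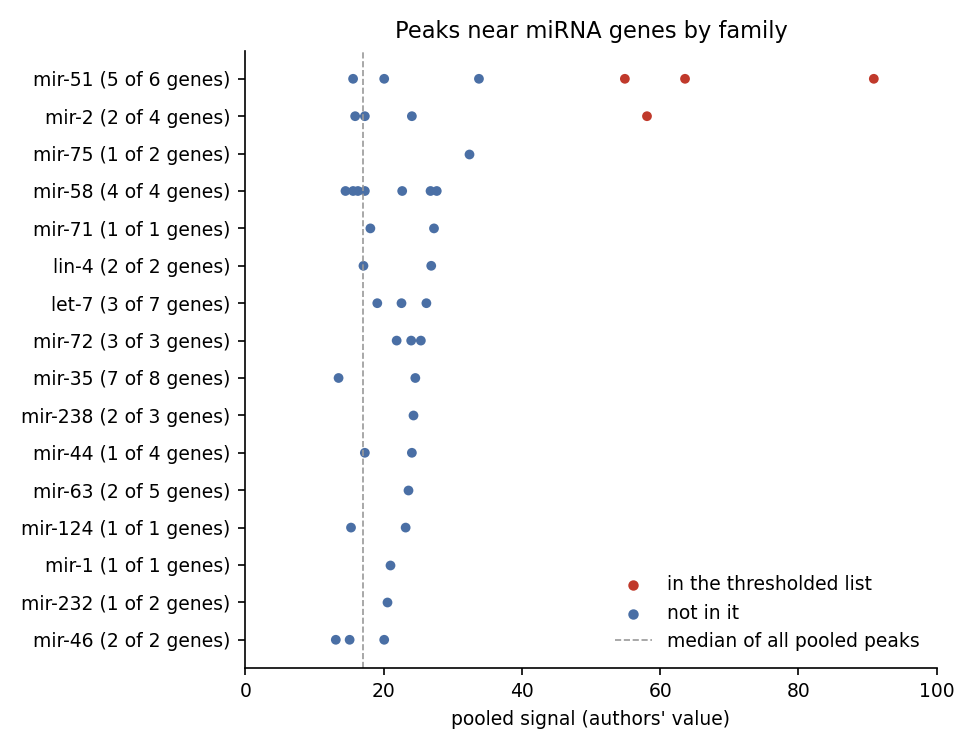
Pooled signal (horizontal axis, authors' value) of every region near a gene of the listed miRNA families (rows, with genes that have a region of genes in the family); red points are in the thresholded list and the dashed line is the median of all pooled regions, 17.0. The mir-51 row reaches 90.9 and the mir-2 row 58.1, and in every other row all points are at or below 32.4; the mir-44 and mir-2 rows share the regions of the mir-61 cluster.

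Taking the 59 genes of the listed families together, 38 (64.4%) had a region, against 112 of the other 202 miRNA genes (55.4%). Their 39 regions had a median signal of 22.6 and 12 of them (30.8%) were in the top decile. The 141 regions near only the other miRNA genes had a median of 18.4 and 18 (12.8%) in the top decile. The families were listed with the highest signals already known, so these shares only describe the 2 sets. By seed, 46 seeds were shared by at least 2 miRNA genes, and 34 of those had a region near at least 1 of their genes. Seeds were read from all 458 mature arms, so both arms of a hairpin could count. Since 57.5% of all miRNA genes had a region in reach, a group of at least 2 genes will often include one. The count is therefore no result about seeds.

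Genomic clusters, here hairpins chained within 1000 bp of the next on any strand, numbered 22 with 62 genes, and 13 had a region. A cluster counted when any of its genes had a region in reach, and 57.5% of all miRNA genes had one. Some clusters, such as mir-8186-1 with mir-8186-2, are annotations on opposite strands of the same place. After the mir-54 to mir-56 cluster the highest were mir-73 and mir-74 with 25.4 (rank 2679), the mir-35 to mir-41 cluster with 24.6, mir-359 and mir-785 with 24.5 (rank 3302), and mir-250 and mir-61 with 24.1 (rank 3630). mir-86 and mir-8211 had 4 regions, up to 23.6 (rank 4013), and the cluster of mir-229, mir-64, mir-65 and mir-66 had 1, of 23.5 (rank 4072). None of these was in the thresholded list. The cluster of mir-2208b, mir-2209a and mir-2209c reached 20.7 (rank 7356), that of mir-1018, mir-4925, mir-4923b, mir-4923a and mir-4921 reached 19.8 (rank 8705), and mir-58b and mir-58c had 18.9 (rank 10406). The lowest were the mir-4807 cluster with 15.8 (rank 18773), mir-1829c and F39B1.3 with 15.4 (rank 20037), and mir-8186-1 and mir-8186-2 with 14.5 (rank 23271).

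Counted by gene, 150 of 261 miRNA genes (57.5%, exact interval 51.2 to 63.5) had a pooled summit in reach: 90 had 1, 48 had 2 and 12 had 3 or more. For a comparison with other gene classes the distance was taken to the 5′ end. A summit within 1000 bp of it was found for 148 of 261 miRNA genes (56.7%), against 49.8% of 19973 protein-coding genes, 64.9% of 612 tRNA genes, 66.8% of 346 snoRNA genes and 45.0% of 129 snRNA genes. A top-decile summit was found for 11.1% of miRNA genes, against 6.32% of protein-coding, 15.8% of tRNA, 16.2% of snoRNA and 11.6% of snRNA genes. Both miRNA shares thus lay above those of protein-coding genes and below those of tRNA and snoRNA genes. Against snRNA genes the miRNA share was higher for any summit and slightly lower for top-decile summits. For thresholded summits the miRNA value was 6 genes (2.3%), 4 of which share the mir-54 region. The other shares were 0.401% of protein-coding, 0.654% of tRNA, 3.18% of snoRNA and 3.1% of snRNA genes.

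Summits lay on both sides of the hairpins, with 90 upstream, 11 inside and 79 downstream of the nearest miRNA gene. Median signals were 19.4 upstream, 23.9 inside and 17.9 downstream, and the top decile held 16, 3 and 11 of them. All 4 thresholded regions were upstream. By distance to the 5′ end, the 24 summits from 500 to 250 bp upstream had the highest median among the 250 bp windows, 22.4, with 7 in the top decile and 2 thresholded. The 22 summits from 250 to 500 bp past the 5′ end had the lowest median, 15.7.

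**Figure D4:**
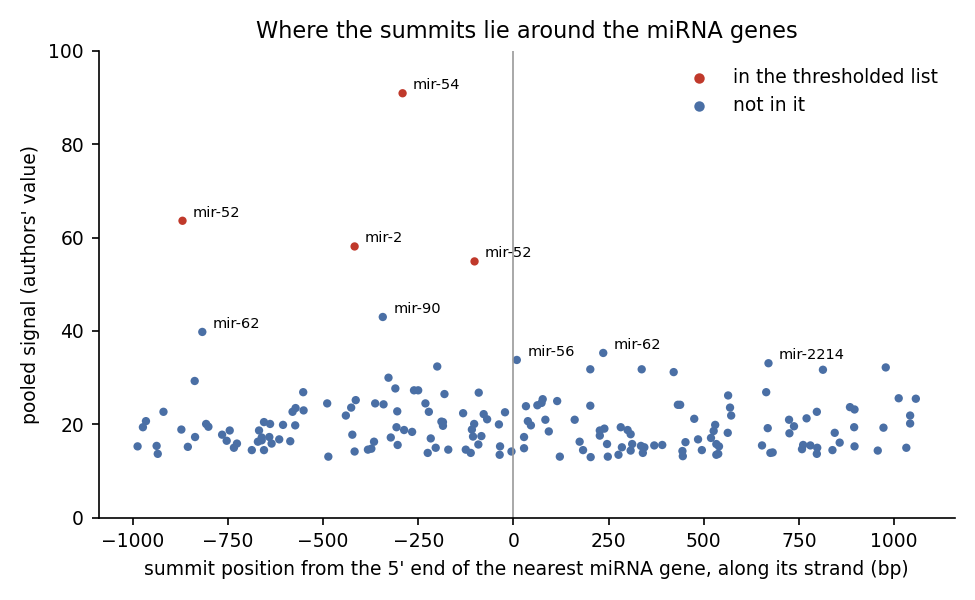
Pooled signal (vertical axis, authors' value) against the position of the summit from the 5′ end of the nearest miRNA gene along its strand (horizontal axis, bp, negative upstream) for the 180 regions; red points are in the thresholded list. All 4 red points, from 54.9 to 90.9, are left of the 5′ end, and right of it no point exceeds 35.3.

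At the distance limit, the last regions inside were near mir-124 (987 bp, signal 15.3), mir-8206 (973 bp, 19.4) and mir-2218b (967 bp, 15.0). The first outside were near mir-243 (1007 bp, 13.4), mir-4929 (1012 bp, 14.4) and mir-8207 (1027 bp, 16.6). From 1000 to 2000 bp there was 1 more thresholded region, 1605 bp from mir-2215, with a signal of 79.2 (rank 14).

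Relative to the protein-coding annotation, 75 of the 180 summits (41.7%) were outside coding genes, against 32.6% of all pooled summits. Introns held 62 (34.4%), against 29.5%, and coding exons 38 (21.1%), against 32.9%, with 5 more in untranslated exons. In introns 13 of 62 regions (21.0%) were in the top decile, against 9.42% of pooled intronic regions, and outside coding genes 11 of 75 were (14.7%), against 10.7%. A coding 5′ end lay within 1000 bp of 70 summits (38.9%), against 43.8%. For 41 of the 180 (22.8%), and 6 of the 30 in the top decile, a coding 5′ end was nearer than the miRNA gene, and which of the 2 genes a region belongs to was not tested.

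Chromosome X held 50 of the 180 (27.8%), against 19.1% of all pooled regions, and chromosome V held 18 (10.0%), against 20.6%. Because the rule took regions near miRNA genes, these shares depend on where those genes lie. The split of miRNA genes over chromosomes was not set beside them, so no excess or deficit of regions is read from them. Top-decile shares were 7 of 50 on X (14.0%), against 11.3% of all pooled regions on X, and 23 of 130 on the autosomes (17.7%), against 9.69%. Structural RNA genes, such as those of tRNA and snoRNA, were within 200 bp of 4 summits (2.22%), against 1.18%. The median GC content was 39.6%, against 37.9%, and in the top decile 42.9%, against 41.2%. The thresholded regions near mir-54 and mir-52 had 55.2%, 52.2% and 53.6%. GC content moves with signal in the pooled list as well, and its part in the signals was not tested.

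Short patterns were searched on both strands within 100 bp of each summit, as letters only, with overlapping matches counted once per region. GAGAGA was found in 38 of the 180 (21.1%), against 13.9% of all pooled regions, and GAGAGAGA, whose matches are also GAGAGA matches, in 8 (4.44%), against 2.47%. CACACA was found in 28 (15.6%), against 10.9%. In the top decile GAGAGA was in 10 of 30 (33.3%), against 22.6%, and its longer form in 4 of 30 (13.3%, 3.76 to 30.7), against 5.67%. These 4 were those of the distal mir-52, mir-90, mir-58a and lin-4 regions. The E-box CACGTG, a palindrome, was in 11 (6.11%), against 4.25%, and CAGCTG, also a palindrome, in 9 (5.0%), against 4.91%. TGACAC was in 18 (10.0%), against 8.23%, TGATAC in 8 (4.44%), against 6.74%, and TGATAA in 24 (13.3%), against 16.4%. The SIX-type MEF3 core TCAGGTTTC, known from vertebrates, was in 1, against 0.243%. The highest region, at mir-54, held TGACAC along with CACACA and the E-box CACGTG but not GAGAGA, and the mir-2 region held none of the 9 patterns.

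A summit was found in both replicates' lists for 44 of the 180 (24.4%, 18.4 to 31.4), an interval that includes the 19.0% of all pooled regions. Replicate 1 alone matched 48 (26.7%, 20.4 to 33.8), against 36.4% of all pooled regions, and replicate 2 alone matched 53 (29.4%, 22.9 to 36.7), against 27.2%. A further 35 (19.4%) were in neither list, against 17.4%. Among regions in the top decile, 21 of 30 (70.0%) were in both lists, against 66.6%. The top decile of both replicates' lists held 5 (2.78%), against 1.15%, and 4 of those 5 were at the mir-51 family: the mir-54, mir-56 and both mir-52 regions, with the mir-2 region the other. Outside that family 1 of 174 was.

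Over the 44 regions in both lists the signals of the replicates had a Spearman rho of 0.212, and the median gap between their percentiles was 23.1 points, against 25.0 over all pooled regions. The largest gaps were at mir-257 (percentile 92.6 in replicate 1 and 5.42 in replicate 2), mir-235 (87.3 and 4.04), mir-4933 (76.8 and 3.51), mir-233 (16.6 and 86.2) and mir-2953 (76.6 and 10.7). In 4 of these 5 it was replicate 1 that ranked the region higher. No one of them was in the pooled top decile, their pooled signals being 21.9 to 24.5.

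**Figure D5:**
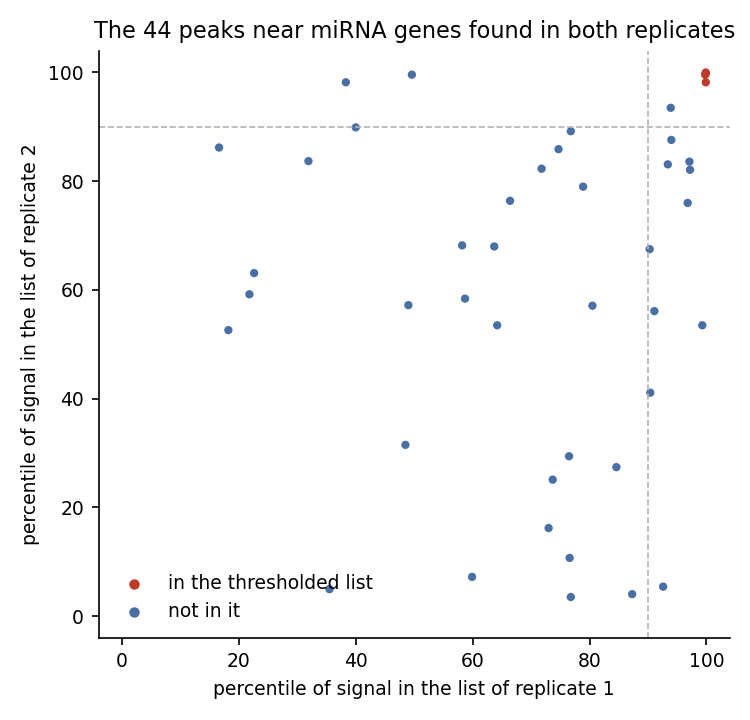
Percentile of signal within the list of replicate 1 (horizontal axis) and of replicate 2 (vertical axis) for the 44 regions near miRNA genes found in both lists; dashed lines mark the top decile of each and red points are in the thresholded list. The 4 red points sit in the upper right corner with 1 blue point, the mir-56 region at 93.9 and 93.5, beyond both lines, and the others scatter over the whole plane.

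Read gene by gene from each replicate's own list, with no match of summits required, 11 of 261 miRNA genes (4.21%) had a region in the top decile of both. They were mir-54, mir-55, mir-55b, mir-56, mir-52, mir-2, mir-90, mir-62, mir-239a, mir-239b and mir-1829a. Measured to the 5′ end the share was also 4.21%, against 1.32% of protein-coding genes. The genes are not separate loci: mir-54, mir-55, mir-55b and mir-56 share 1 region in each list, and so do mir-239a and mir-239b. The mir-239a and mir-239b pair had 24.3 (rank 3455) in the pooled list, 18.0 (rank 1258) in replicate 1 and 24.9 (rank 186) in replicate 2. In replicate 1 no summit lay within 100 bp of the pooled one. Regions are wider than that limit, so whether the replicate values come from overlapping regions was not tested. A snoRNA gene, C34E11.20, also lies within 200 bp of the pooled summit near mir-239a. mir-1829a had 21.9 (rank 5723), with 20.7 (rank 495) in replicate 1 and 19.3 (rank 529) in replicate 2. Its replicate values belong to different pooled regions. The one 440 bp upstream was matched in replicate 2 and not in replicate 1. The one 965 bp upstream, with a pooled signal of 20.7 (rank 7343), was matched in replicate 1 and not in replicate 2.

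The genes of the miRNA pathway were read for comparison from a hand-made list, with the distance taken to the 5′ end of a coding transcript. ntl-1, planned for that list, is not among the genes counted. Of 18 genes for miRNA processing and silencing 14 (77.8%) had a pooled summit within 1000 bp, against 53.4% of all protein-coding genes, and 6 (33.3%) had one in the top decile, against 7.38%. ain-1, a GW182-type silencing factor, had 60.6 (rank 47), nhl-2, a TRIM-NHL cofactor, had 38.1 (rank 300), and cgh-1, a helicase of P bodies, had 28.5 (rank 1427). pab-1, the poly(A)-binding protein, had 35.7 (rank 420), hrpk-1 had 35.5 (rank 430) and vig-1 had 27.7 (rank 1679). Of these 6 genes, only ain-1 and nhl-2 had the summit in the top decile of both replicates' lists. The pab-1 summit was in the top decile of replicate 2 only, and the cgh-1 summit was matched in both lists but in the top decile of neither. hrpk-1 had no match in replicate 2, and vig-1 had none in replicate 1. The Argonaute gene alg-1 had 24.3 (rank 3453), and alg-2 had no summit. Drosha (drsh-1), its partner pash-1 and Dicer (dcr-1) had 19.4, 13.5 and 17.7. Of 8 classic miRNA targets 6 had a summit and none of the 8 a top-decile one: lin-28 had 23.6, lin-41 and daf-12 had 21.6, lin-14 had 16.5, and hbl-1 had none. The list was drawn up with earlier results of these data known.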

How the data were processed

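UNC-39 tagged with eGFP was precipitated from 2 replicates of L2 larvae, and the deposited ce11 peak lists were the starting point. Per the file listings deposited with the samples, the authors called regions on each replicate and on both together, each with a control alignment, and made the thresholded list from them with the irreproducible discovery rate. The signal of each region, in narrowPeak column 7, is the authors' enrichment value, comparable within 1 list only. The sources used here name no aligner, peak caller or threshold. The control alignments and the ce10 lists were not analysed here. No read counts were used, so depth is unknown; exact (Clopper-Pearson) 95% intervals cover counting error only.

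Summits (column 2 plus column 10) were set against Ensembl release 115 for WBcel235, the build of ce11, and matched between lists within 100 bp. A region's percentile is the share of its list with lower signal. Sequences came from RefSeq's WBcel235 genome by position; 260 of 261 miRNA genes had a mature strand there, and let-7, which Ensembl lists by a number, took its RefSeq symbol. Scripts used Python 3.11.15, pandas 2.3.3, numpy 2.4.6, SciPy 1.17.1 and matplotlib 3.10.9, and the overlap code was tested on simulated data.

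Regions named with values are those in the thresholded list, the 20 of highest pooled signal, those of the mir-51, mir-35, let-7 and mir-58 families, lin-4 and lsy-6, every cluster of at least 2 genes with a region, and the 5 largest gaps between replicate ranks; others named in the text were chosen after their values were seen. The members and lists were chosen with earlier results of these data known. With 1 group and positions as the rule, no test was made. Alternatives changed the distance, the point it was measured from, the match, the decile and the replicate.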

Additional observations from a re-analysis of the deposited data

How the results depend on the processing

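Of 42 values recomputed under other settings, 28 stayed within the tolerance and 14 moved. Reversal of a result was not among the labels. The tolerance for a count was 1.5 times the reported one. It still covers 20 top-decile regions and 110 miRNA genes at 500 bp, and 201 miRNA genes at 2000 bp. It also covers 62 regions in both lists with matches within 200 bp. For the median percentile the tolerance was the standard deviation of the replicates' own values, which it was also used to judge. Some moves follow from the setting itself, such as fewer regions at a shorter reach. With a reach of 500 bp there were 110 regions, 26 of them in both replicates' lists. With 2000 bp there were 327, of which 48 were in the top decile, 69 in both lists and 11 in the top decile of both, and the median percentile was 59.3. The top-decile share was 18.2% at 500 bp and 14.7% at 2000 bp, above 10.0% in each. With the top twentieth in place of the top decile, 17 of 180 regions counted (9.44%), against a twentieth of all pooled regions by definition. With matches within 50 bp, 26 regions were in both lists and 2 in the top decile of both. With matches within 200 bp these counts were 62 and 6. Leaving out the mir-51 family, an alternative chosen after seeing the data, left 174 regions. Of these 1 was thresholded (0.575%), against 0.467% of all pooled regions. In the top decile of both lists 1 of the 174 remained, against 1.15% of all pooled regions. The pooled top decile held 14.9% of the 174, against 10.0%.

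Reading 1 replicate's list in place of the pooled one gave 161 to 163 regions, 139 to 142 miRNA genes, 18 to 33 top-decile regions and a median percentile of 52.5 to 59.9. Replicate 2 gave the lower of the last pair of values, so the top-decile share was close to 10.0% in replicate 2 and above it in replicate 1 and in the pooled list. No paired analysis was possible because the series has 1 group. Depth is unknown, background regions are part of the lists, and replicate signals are loosely related; 136 of the 180 regions were matched in 1 replicate or in neither.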
